A study of Rattus norvegicus with 16 samples.

Results

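The data described here are the transcriptomes of the adhesive implant–tissue interface on the rat abdominal wall at 2 times, day 3 and day 14 post-implantation. All libraries labelled as adhesive implant were taken, 4 from day 3 and 4 from day 14, so that 8 of the 16 libraries of the series enter the comparison. The remaining 8 come from non-adhesive implants on the same days and are used only where the change between days is set beside theirs. The sample labels give female Sprague Dawley rats of 12 weeks for all 16 libraries and name no genetic modification, whereas the methods of the study name both sexes for its rat experiments as a whole. The adhesive implant was a mock device of polyurethane with an adhesive layer of crosslinked poly(acrylic acid) NHS ester and poly(vinyl alcohol), which bonds to wet tissue. The non-adhesive implant was the same object after swelling in PBS, which removes its bonding, and sutures held it in place. No tissue without an implant was sequenced for this comparison, so day 3 is the reference and not a healthy baseline. Whether each library stems from its own rat is not stated, and p values therefore measure the spread between these samples, which may in part be technical. Days 3 and 14 are those of the sample labels. Day 17 is mentioned once in the design text and day 10 once in the extraction notes.

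An implant placed on tissue first meets fluid, platelets and neutrophils, then monocytes and macrophages that release cytokines, and later fibroblasts that lay down matrix. Interferons released early by leukocytes and stromal cells switch on a set of antiviral and antigen presentation genes in many cell types at once. The abdominal wall beneath the implant is largely skeletal muscle, whose damaged fibres are repaired by dividing satellite cells and regain their contractile and metabolic genes as they mature.

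Library totals were 18616084 to 22374546 counts on day 3 and 13852126 to 15994448 on day 14, without overlap. The share held by the 10 most abundant genes was 8.77 to 17.0% on day 3 and 20.3 to 26.8% on day 14. Day and any batch that follows it cannot be told apart in this design. Counts were scaled by TMM, a method that corrects library totals for a few very abundant genes, with factors of 1.03 to 1.39 on day 3 and 0.69 to 0.95 on day 14. Levels are given as CPM, the count of a gene relative to its scaled library total. Muscle marker genes were abundant in every library, as the tissue label implies: myoglobin (Mb) stood at no less than 710.2 CPM and the 16 genes of the muscle fibre list summed to 4556 to 11319 CPM on day 3 and 12320 to 17481 CPM on day 14. Day 3 replicate 1 stood apart from its group. The first principal component of the 500 most variable genes held 70.4% of the variance. This library lay at -12.3 on it, the other day 3 libraries at -39.7 to -26.8 and the day 14 libraries at 18.9 to 36.8. Several muscle genes were highest in it among the day 3 libraries. Symbols could be attached to 2007 of the 32552 genes in the files, of which 1889 passed the filter on low counts, so the gene groups below describe the named members and not whole pathways.

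Between day 3 and day 14, 756 genes rose and 696 fell at the adhesive implant–tissue interface among 13716 genes tested with edgeR. These are 5.51% and 5.07% of the genes tested, 10.6% together. A gene was called when its adjusted p did not exceed 0.05 and its log2 fold change reached 1, up or down. Smaller changes included, 3122 genes (22.8%) had an adjusted p within 0.05. Of the called genes, 46 rose and 44 fell by a log2 fold change of at least 3. Libraries of both days did not overlap for 3620 genes (26.4%). With a symbol, 88 of the called genes rose and 93 fell. The median log2 fold change over all genes tested was -0.01 under TMM. Scaled by library totals alone it was -0.58, and 291 genes were then called higher and 2579 lower. The share of higher calls was then 10.1% in place of 52.1%, so directions given here are relative to the TMM scale. The count of calls was 727 without day 3 replicate 2, 934 without day 14 replicate 1 and 884 without day 14 replicate 4.

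**Figure D1:**
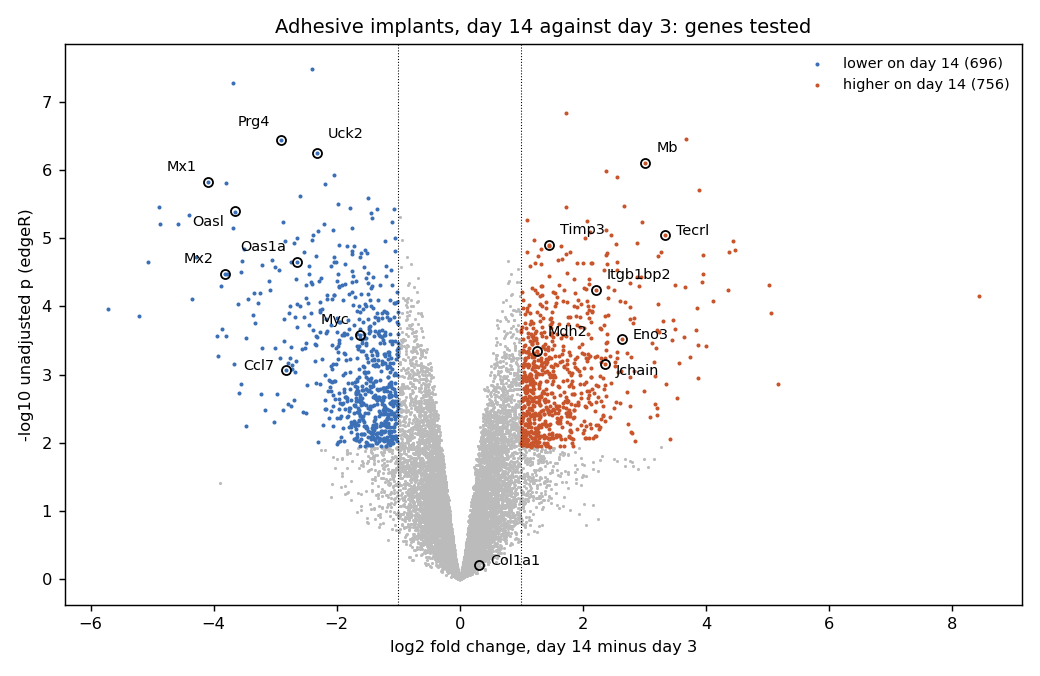
Log2 fold change between day 14 and day 3 (horizontal axis) against -log10 of the unadjusted p from edgeR (vertical axis) for the 13716 genes tested at adhesive implants (n = 4 libraries per day), with 756 genes called higher in orange, 696 called lower in blue and the others in grey; dotted lines stand at 1 and -1. Interferon-induced genes such as Mx1 (-4.10) lie far to the left and muscle genes such as Mb (3.02) to the right, and Col1a1 (0.31) lies near the centre.

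Interferon-induced genes fell more often than any other gene group described here. Of 17 tested members with a symbol, from a list of 40, 12 fell (70.6%, against 5.07% of all genes tested), none rose and 5 did not pass, and their median log2 fold change was -1.22. Mx1, an antiviral GTPase on chromosome 11 from 37891156 to 37914983 (positions as in the count files), stood in replicates 1 to 4 at 239, 361, 130.4 and 188 CPM on day 3 and 8.53, 13.8, 12.1 and 19 CPM on day 14. Every day 3 library thus lay above every day 14 library by a wide margin (log2 fold change -4.10, standard error 0.37, edgeR adjusted p = 0.0017). Its paralog Mx2 stood at 122, 403, 176 and 373 CPM on day 3 and 15, 19.1, 9.53 and 32.1 CPM on day 14 and also did not overlap (log2 fold change -3.82, edgeR adjusted p = 0.0036), although reads of the near-identical parts of both genes may have been shared between them. Oasl and Oas1a belong to the oligoadenylate synthetase family, which senses double-stranded RNA. Oasl stood at 63.3, 90.3, 37.6 and 61.2 CPM on day 3 and 2.39, 7.72, 4.26 and 5.35 CPM on day 14 (log2 fold change -3.66, standard error 0.37, edgeR adjusted p = 0.0023). Oas1a stood at 21.6, 28.6, 18.8 and 16.4 CPM on day 3 and 1.87, 2.99, 5.85 and 2.79 CPM on day 14, and the highest day 14 library, replicate 3, remained below the lowest of day 3 (log2 fold change -2.65, edgeR adjusted p = 0.003). Day 3 replicate 2 was the highest day 3 library for Mx1, Mx2, Oasl and Oas1a, and the calls of these genes held without any single library. The list summed to 1008 to 2096 CPM on day 3 and 401 to 624 CPM on day 14, and 9 to 12 members fell when single libraries were left out. Members that did not pass were Trafd1 (-0.79, adjusted p = 0.012), Parp10 (-0.54, adjusted p = 0.056), Pnpt1 (-0.28, 0.13), Ubd (-0.14, 0.83) and Ifitm1 (0.72, 0.25), each as log2 fold change and edgeR adjusted p.

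More antigen presentation genes were called lower than higher on day 14. Of 11 tested members, 5 fell (45.45%, against 5.07% of all genes tested) and 1 rose (9.09%, against 5.51%). The gene that rose was RT1-DOb, a class II gene (log2 fold change 2.12, edgeR adjusted p = 0.033). The median log2 fold change of the list was -0.05, with 5 members positive and 6 negative. Of the genes that fell, 3, namely Tap1, Psmb8 and Psmb9, are also members of the interferon list. RT1-S3, an MHC class I gene of the rat RT1 complex, stood at 242, 262, 105 and 204 CPM on day 3 and 61.7, 71.2, 62.5 and 59.1 CPM on day 14 (log2 fold change -1.67, standard error 0.26, edgeR adjusted p = 0.0055). The day 14 libraries lay close together and below all 4 libraries of day 3. RT1-N3, a neighbouring class I gene, also lacked overlap (log2 fold change -1.38, edgeR adjusted p = 0.0073), and reads may be shared among class I genes of this complex. Tap1, which carries peptides into the endoplasmic reticulum for loading onto class I molecules, stood at 107, 135, 46.9 and 98.5 CPM on day 3 and 29.1, 36.6, 29.8 and 26.2 CPM on day 14 (log2 fold change -1.67, edgeR adjusted p = 0.0074). Psmb8, an immunoproteasome subunit, fell by 1.02 on the log2 scale (adjusted p = 0.022, edgeR) and kept its call in 3 of the 8 fits without 1 library. The count of falling members was 3 without day 3 replicate 2 or 4 or day 14 replicate 1, 3 or 4. No member rose without day 3 replicate 1 or 2 or without day 14 replicate 1, 2 or 4, and 2 rose without day 3 replicate 4. RT1-Ba, also a class II gene, ranged from 8.35 to 85.8 CPM on day 3 and 74 to 162 CPM on day 14 and did not pass (log2 fold change 1.76, edgeR adjusted p = 0.086).

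The sequences upstream of Oas1a and Tap1 are shown because both genes fell and both hold the core of the interferon-stimulated response element, GAAA and GAAA set apart by any 2 bases. They run from 250 bases before to 50 bases after the start site in RefSeq, assembly GRCr8, and capitals mark the motif on either strand (2 overlapping matches for Oas1a).
Oas1a, chr12:41330216-41330515, strand +: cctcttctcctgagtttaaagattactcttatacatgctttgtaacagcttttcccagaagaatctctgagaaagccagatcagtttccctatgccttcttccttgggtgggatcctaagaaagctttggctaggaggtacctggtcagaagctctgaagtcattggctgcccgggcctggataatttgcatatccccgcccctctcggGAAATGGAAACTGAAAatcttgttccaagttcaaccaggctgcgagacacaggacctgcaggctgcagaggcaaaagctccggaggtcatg
Tap1, chr20:4668494-4668793, strand -: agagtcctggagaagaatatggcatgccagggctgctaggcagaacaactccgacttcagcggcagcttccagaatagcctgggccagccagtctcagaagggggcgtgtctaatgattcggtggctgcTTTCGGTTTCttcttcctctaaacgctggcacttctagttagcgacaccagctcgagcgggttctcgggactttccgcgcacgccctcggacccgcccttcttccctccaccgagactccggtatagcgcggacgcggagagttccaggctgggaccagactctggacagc
Of the 17 tested interferon list members, 14 have such a sequence and 4 of them, all called lower (Lgals3bp, Oas1a, Psmb8 and Tap1), hold the motif, where 3.92% of the 33469 promoters in the table hold it. Mx1 and Oasl are without a match in this window, and Mx2 is not in the table. A match describes these letters only.

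**Figure D2:**
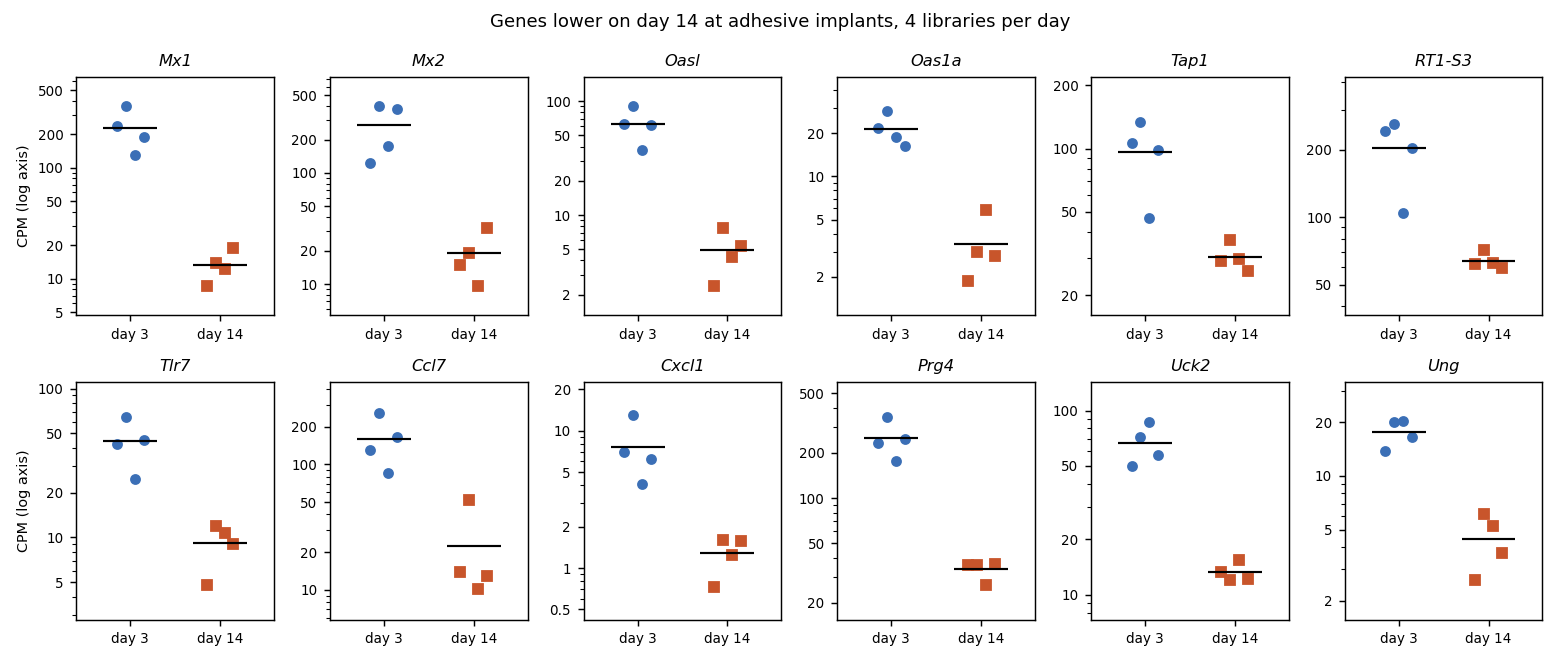
Level of 12 genes lower on day 14 (vertical axis, CPM on a log axis) in each library of adhesive implants on day 3 (circles) and day 14 (squares), with replicates 1 to 4 from left to right and a line at the mean of n = 4. The libraries of both days do not overlap for any of these 12 genes, with Mx1 at 130 to 361 CPM on day 3 and 8.53 to 19.0 CPM on day 14. For Mx1, Mx2, Oasl, Oas1a, Ccl7, Cxcl1 and Prg4 a lack of overlap was a condition of the choice, and the others are genes called lower. Among all genes tested, 26.4% lacked overlap.

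Among chemokine, cytokine and inducible mediator genes more fell than rose, and most did not pass. Of 20 tested members, 6 fell (30.0%, against 5.07% of all genes), 2 rose (10.0%, against 5.51%) and 12 did not pass, with a median log2 fold change of -0.96. Ccl7, a chemokine that draws monocytes, stood at 129.6, 258, 84.9 and 164 CPM on day 3 and 13.8, 52.1, 10.2 and 13 CPM on day 14 (log2 fold change -2.83, standard error 0.58, edgeR adjusted p = 0.013). Day 14 replicate 2 lay well above the other day 14 libraries and still below the lowest library of day 3. Cxcl1, a chemokine for neutrophils, ranged from 4.11 to 13.1 CPM on day 3 and 0.728 to 1.6 CPM on day 14 (log2 fold change -2.53, edgeR adjusted p = 0.0059). Bdkrb1, the inducible bradykinin receptor, stood at 2.79, 5.86, 1.16 and 3.09 CPM on day 3 and 0, 0.291, 0.334 and 0.151 CPM on day 14 and was thus near the limit of detection on day 14, with no count in replicate 1 (log2 fold change -3.94, edgeR adjusted p = 0.0076). Socs1, a feedback inhibitor of cytokine signalling, ranged from 2.61 to 8.16 CPM on day 3 and 0.226 to 2.4 CPM on day 14 and passed in 3 of the 8 fits without 1 library. Il10, which encodes the anti-inflammatory cytokine interleukin-10 and is the only gene of the qPCR and immunofluorescence panel of the study with a symbol, stood at 1.14, 2.43, 0.813 and 2.02 CPM on day 3 and 0.936, 1.24, 0.251 and 0.301 CPM on day 14 with overlap between days (log2 fold change -1.24, edgeR adjusted p = 0.14). Il1b had a log2 fold change of -0.69 (adjusted p = 0.5, edgeR). Il15, a cytokine that sustains natural killer and memory T cells, ranged from 5.18 to 15.2 CPM on day 3 and 14.6 to 35.4 CPM on day 14, where day 3 replicate 1 just overlapped day 14, and rose (log2 fold change 1.43, edgeR adjusted p = 0.026). Il23a, a subunit of interleukin-23, was the other member that rose (log2 fold change 1.40, edgeR adjusted p = 0.05). The count of members that rose was 0 without day 3 replicate 2 or 3 and without day 14 replicate 1 or 4.

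Some leukocyte genes fell. Of 26 tested myeloid genes, 5 fell (19.2%, against 5.07% of all genes) and none rose, with a median of -0.57. Of 16 pan-leukocyte and homing genes 2 fell (12.5%) and none rose (median -0.51). Of 17 lymphocyte genes 3 fell (17.6%) and 1 rose (5.88%, against 5.51% of all genes), with a median of -0.33. Tlr7, an endosomal receptor for single-stranded RNA, stood at 42.5, 64.8, 24.9 and 45.5 CPM on day 3 and 4.78, 11.9, 10.8 and 9.04 CPM on day 14 (log2 fold change -2.27, standard error 0.34, edgeR adjusted p = 0.0049). The days did not overlap, and the call held without any single library. Cd244, a receptor of natural killer and myeloid cells, ranged from 7.62 to 38 CPM on day 3 and 2.67 to 4.37 CPM on day 14 (log2 fold change -2.52, edgeR adjusted p = 0.0093). Aif1, which encodes the macrophage protein IBA1, ranged from 60.0 to 113 CPM on day 3 and 21.9 to 55.4 CPM on day 14. Csf2rb, the shared signalling subunit of the GM-CSF receptor, ranged from 52.8 to 75.6 CPM on day 3 and 14.2 to 44.1 CPM on day 14. They fell by 1.31 and 1.40 on the log2 scale and passed in 5 and 6 of the 8 fits without 1 library. Ptprc, Itgb2 and Cybb, picked here as broad leukocyte genes, did not pass. Ptprc, which encodes CD45, had 118 ± 45 CPM (SD, n = 4) on day 3 and 67.4 ± 22.4 CPM (SD, n = 4) on day 14 (log2 fold change -0.81, edgeR adjusted p = 0.1). Itgb2, the integrin beta chain of leukocytes, had 129 ± 45.3 CPM (SD, n = 4) on day 3 and 103 ± 39.8 CPM (SD, n = 4) on day 14 (log2 fold change -0.33, edgeR adjusted p = 0.48). Cybb, the catalytic subunit of the phagocyte oxidase, had 278 ± 107 CPM (SD, n = 4) on day 3 and 242 ± 85.9 CPM (SD, n = 4) on day 14 (log2 fold change -0.20, edgeR adjusted p = 0.71). The 16 pan-leukocyte genes summed to 463 to 698 CPM on day 3 and 426 to 520.4 CPM on day 14 and the 26 myeloid genes to 750.1 to 1501 CPM on day 3 and 502 to 1004 CPM on day 14, with overlap in both. In bulk tissue, fewer cells of a type and less RNA per cell cannot be told apart, and the part of leukocyte number in the fall of interferon-induced genes was not tested. Jchain, which encodes the joining chain of secreted antibodies, went the other way and stood at 1.34, 1.2, 0.813 and 2.28 CPM on day 3 and 2.5, 11, 9.19 and 6.55 CPM on day 14 (log2 fold change 2.36, standard error 0.47, edgeR adjusted p = 0.012), with the lowest day 14 value in replicate 1. The number of falling myeloid genes depended on single libraries: it was 1 without day 3 replicate 2 or day 14 replicate 4, 2 without day 14 replicate 3, 3 without day 14 replicate 1 and 8 without day 14 replicate 2. For lymphocyte genes it was 1 without day 3 replicate 2 or 4 or day 14 replicate 1, 3 or 4. For pan-leukocyte genes it was 1 without those same 5 libraries, 4 without day 3 replicate 1 or 3 and 5 without day 14 replicate 2.

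Cell division and DNA replication genes fell as a second large group. Of 32 tested members, 13 fell (40.6%, against 5.07% of all genes), 1 rose (3.1%, against 5.51%) and 18 did not pass, with a median log2 fold change of -0.88. Ung, which removes uracil from DNA, stood at 13.8, 20.1, 20.2 and 16.4 CPM on day 3 and 2.6, 6.12, 5.26 and 3.69 CPM on day 14 (log2 fold change -1.98, standard error 0.26, edgeR adjusted p = 0.0036). Pole2, a subunit of the replicative DNA polymerase epsilon, ranged from 1.73 to 2.15 CPM on day 3 and 0.151 to 0.947 CPM on day 14 (log2 fold change -2.07, edgeR adjusted p = 0.016). Both lacked overlap between days and held without any single library. Kifc1, a kinesin of the mitotic spindle, ranged from 7.34 to 10.0 CPM on day 3 and 1.5 to 5.24 CPM on day 14 (log2 fold change -1.71, edgeR adjusted p = 0.017), with an adjusted p of 0.055 without day 14 replicate 4. Mcm6, a subunit of the replicative helicase, ranged from 11.9 to 20.7 CPM on day 3 and 4.6 to 10.6 CPM on day 14 (log2 fold change -1.25, edgeR adjusted p = 0.017), with an adjusted p of 0.051 without day 3 replicate 2 (edgeR for both). Other helicase genes did not pass, such as Mcm4 (log2 fold change -0.50, edgeR adjusted p = 0.073) and Mcm7 (log2 fold change 0.33, edgeR adjusted p = 0.12). Cit, which encodes citron kinase and is used in neurons and muscle as well as in cytokinesis, was the 1 member that rose, from 7.3 to 15 CPM on day 3 and 19.2 to 31.9 CPM on day 14. Because many members lie near the threshold, the count of falling genes was 4 to 7 when day 3 replicate 2, 3 or 4 or day 14 replicate 1, 3 or 4 was left out, and 16 and 15 without day 3 replicate 1 and day 14 replicate 2. The list summed to 296 to 343 CPM on day 3 and 236 to 302 CPM on day 14, with overlap between days.

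The promoters of Ung and Kifc1 are shown because both genes fell and both hold TTTGAA, in capitals on either strand (RefSeq, GRCr8). The same letters form the cell cycle genes homology region of many mitotic genes. They start at -166 (Ung) and -22 (Kifc1) relative to the start site, and a match describes these letters only.
Ung, chr12:48153996-48154295, strand -: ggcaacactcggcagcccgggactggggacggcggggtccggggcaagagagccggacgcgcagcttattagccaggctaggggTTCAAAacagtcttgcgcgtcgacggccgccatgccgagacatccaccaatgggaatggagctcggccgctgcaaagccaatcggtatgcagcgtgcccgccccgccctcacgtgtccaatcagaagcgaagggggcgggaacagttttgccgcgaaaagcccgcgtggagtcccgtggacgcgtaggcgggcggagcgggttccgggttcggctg
Kifc1, chr20:5000679-5000978, strand +: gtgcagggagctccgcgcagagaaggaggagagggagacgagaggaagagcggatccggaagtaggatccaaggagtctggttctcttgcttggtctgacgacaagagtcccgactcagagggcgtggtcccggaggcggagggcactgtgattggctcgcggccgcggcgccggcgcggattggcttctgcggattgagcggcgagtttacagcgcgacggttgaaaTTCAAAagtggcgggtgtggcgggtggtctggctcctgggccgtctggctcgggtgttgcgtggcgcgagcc
Of 30 cell division list members with a promoter, 12 hold TTTGAA, where 18.4% of all promoters hold it. Of these 12, 10 are called, Cit, which rose, among them. Among these 30, the E2F site TTTGGCGC is in 3 (0.493% of all promoters) and TTTCCCGC in 4 (0.974%).

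Few genes of ribosome biogenesis, nucleotide synthesis or the secretory pathway were called. Uck2, a kinase that salvages uridine and cytidine for RNA synthesis, stood at 49.9, 71.9, 86.3 and 57.3 CPM on day 3 and 13.2, 12.1, 15.5 and 12.2 CPM on day 14 (log2 fold change -2.33, standard error 0.19, edgeR adjusted p = 0.0013). Myc, the growth-promoting transcription factor, stood at 25.6, 43.8, 29.6 and 31.1 CPM on day 3 and 5.62, 13.9, 13 and 9.57 CPM on day 14 (log2 fold change -1.62, edgeR adjusted p = 0.0076). Neither gene had overlapping days. They were the only 2 of 37 tested genes of ribosome biogenesis, the nucleolus and nucleotide synthesis that were called (5.41% lower, against 5.07% of all genes), and the list's median was -0.32. With an adjusted p within 0.05 and any size of change, 14 of the 37 were lower and 1 was higher on day 14. Over all 13716 genes tested, 1542 were lower and 1580 higher at this limit. Among 28 secretory pathway genes none was called and 6 were lower and 2 higher at this looser limit. Of these, the chaperone genes Calr (log2 fold change -0.76, edgeR adjusted p = 0.031) and Canx (log2 fold change -0.75, edgeR adjusted p = 0.015) were the most abundant. Among 20 tested immediate-early and stress-response genes 3 fell (15.0%, against 5.07% of all genes), namely Myc, Atf3 and Cdkn1a. Atf3, a stress-induced transcription factor, ranged from 58 to 102 CPM on day 3 and 20.8 to 48.5 CPM on day 14 (log2 fold change -1.28, edgeR adjusted p = 0.013). Cdkn1a, the cyclin-dependent kinase inhibitor p21, stood at 299, 305, 348 and 306 CPM on day 3 and 104.2, 162, 176 and 90.7 CPM on day 14 (log2 fold change -1.24, edgeR adjusted p = 0.0086). The call of these 3 genes held without any single library, and 5 and 6 genes of this list fell without day 3 replicate 1 and without day 14 replicate 2.

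Skeletal muscle genes rose or stayed below the threshold, and none fell. Among 16 tested genes of fibre structure and contraction 4 rose, among 9 of excitation and calcium handling 2, and among 15 of energy supply 4, which is 25%, 22.2% and 26.7% against 5.51% of all genes. Mb, which stores oxygen in muscle and lies on chromosome 7 from 118101634 to 118108864, stood at 942, 710.2, 1142 and 788 CPM on day 3 and 8797, 6165, 6694 and 7341 CPM on day 14 (log2 fold change 3.02, standard error 0.26, edgeR adjusted p = 0.0016). Its lowest day 14 library lay far above its highest day 3 library. Eno3, the muscle enolase of glycolysis, stood at 2562, 832, 1183 and 695 CPM on day 3 and 11356, 5468, 7107 and 8831 CPM on day 14 (log2 fold change 2.64, standard error 0.47, edgeR adjusted p = 0.008). Day 3 replicate 1 was the highest day 3 library for Eno3 and still below all of day 14. Itgb1bp2, which encodes melusin, an integrin-binding protein of striated muscle, stood at 30.4, 10.9, 15.9 and 25.2 CPM on day 3 and 111, 69.5, 108 and 94.5 CPM on day 14 (log2 fold change 2.22, edgeR adjusted p = 0.0043). Tecrl, which encodes a protein of the endoplasmic reticulum in heart and skeletal muscle, was scarce on day 3 and ranged from 0.385 to 0.879 CPM on day 3 and 3.42 to 7.53 CPM on day 14 (log2 fold change 3.34, edgeR adjusted p = 0.0028). Phka1 and Phkg1 encode subunits of the phosphorylase kinase that starts glycogen breakdown. Phka1 ranged from 135 to 224 CPM on day 3 and 491 to 1039 CPM on day 14 (log2 fold change 2.14, edgeR adjusted p = 0.003). Phkg1 ranged from 17.2 to 69 CPM on day 3 and 119 to 280.1 CPM on day 14 (log2 fold change 2.52, edgeR adjusted p = 0.011). Kcnj12, an inward rectifier potassium channel of muscle, stood at 61.9, 17.4, 32.5 and 18.4 CPM on day 3 and 184, 105, 123 and 199.5 CPM on day 14 (log2 fold change 2.23, edgeR adjusted p = 0.01). Phkg1, Kcnj12, Map2k6 and Srebf1 shared the order seen for Eno3, with day 3 replicate 1 the highest of day 3 and no overlap with day 14. Map2k6, a kinase of the p38 pathway, ranged from 3.83 to 18.8 CPM on day 3 and 30.9 to 55.3 CPM on day 14 (log2 fold change 2.36, edgeR adjusted p = 0.017). Srebf1, a regulator of lipid synthesis, ranged from 20.2 to 71.1 CPM on day 3 and 109 to 395 CPM on day 14 (log2 fold change 2.57, edgeR adjusted p = 0.013). The calls of Mb, Eno3, Itgb1bp2, Tecrl, Phka1, Phkg1, Kcnj12, Map2k6 and Srebf1 held without any single library.

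Abundant muscle genes were also found among those that did not pass. Fhl1, a LIM-domain gene of muscle, had 6246 ± 2692 CPM (SD, n = 4) on day 3 and 6016 ± 960.1 CPM (SD, n = 4) on day 14 (log2 fold change -0.05, edgeR adjusted p = 0.92). Dusp27 had 191 ± 60.3 CPM (SD, n = 4) on day 3 and 189 ± 29.3 CPM (SD, n = 4) on day 14 (log2 fold change -0.01, edgeR adjusted p = 0.98). Atp2a2, the calcium pump of slow and cardiac muscle, stood at 1361, 845, 969.8 and 552 CPM on day 3 and 2744, 1614, 1456 and 2052 CPM on day 14 and rose by a log2 fold change of 1.08 (adjusted p = 0.04, edgeR), a call kept in 2 of the 8 fits without 1 library. Yipf7 kept its call in 2 and Pfkfb1 in 1 of these fits. The medians of the 3 muscle lists were 0.59, 0.58 and 0.46, and with library totals alone 0.02, 0.02 and -0.09, so that the median of the energy list changed sign. Without day 3 replicate 1, 7 fibre and 6 energy genes rose in place of 4 and 4. Without day 3 replicate 2, 3 or 4 or day 14 replicate 1, 3 or 4, 1 excitation gene rose in place of 2. Of 9 myogenic regulator and muscle regeneration genes 3 fell (33.3%, against 5.07% of all genes) and none rose. The list's median log2 fold change was -0.05, with 4 members positive and 5 negative. The 3 that fell were Cdkn1a, which is also counted among the stress-response genes, Myf5 and Runx1. Myf5, a factor of satellite cells and myoblasts, ranged from 6.31 to 20.03 CPM on day 3 and 4.06 to 6.1 CPM on day 14 (log2 fold change -1.21, edgeR adjusted p = 0.031). Runx1, which is induced in damaged muscle, ranged from 19 to 63.9 CPM on day 3 and 7.08 to 21.5 CPM on day 14 (log2 fold change -1.46, edgeR adjusted p = 0.048). Myf5 and Runx1 each kept the call in 1 of the 8 fits without 1 library.

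**Figure D3:**
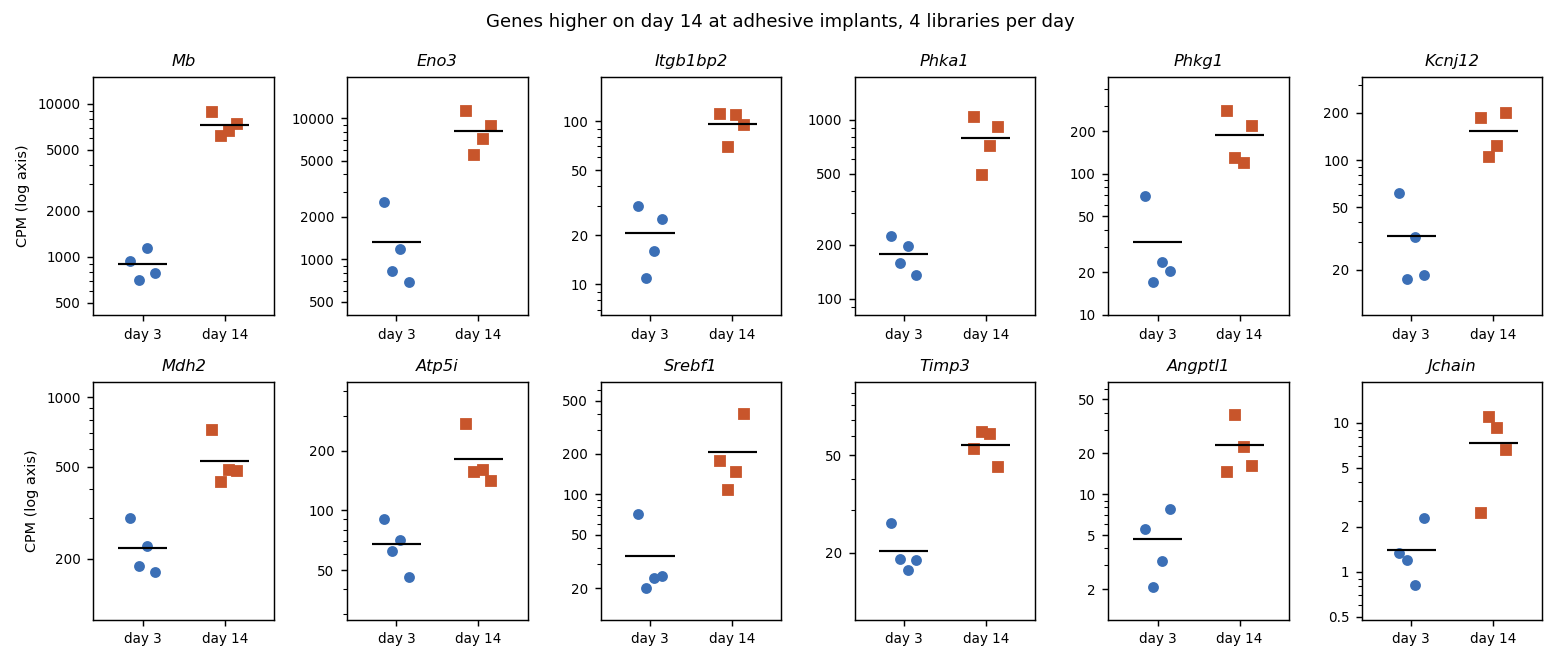
Level of 12 genes higher on day 14 (vertical axis, CPM on a log axis) in each library of adhesive implants on day 3 (circles) and day 14 (squares), with replicates 1 to 4 from left to right and a line at the mean of n = 4. None of the 12 genes overlaps between days, and day 3 replicate 1, the leftmost circle, is the highest of day 3 for Eno3 (2562 CPM), Phkg1 (69.1 CPM) and Srebf1 (71.1 CPM). For Mb, Eno3, Itgb1bp2, Phkg1, Kcnj12, Srebf1, Angptl1 and Jchain a lack of overlap was a condition of the choice, and the others are genes called higher. Among all genes tested, 26.4% lacked overlap.

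Promoters of Itgb1bp2 and Eno3 are shown because both genes rose and hold CAGCTG, an E-box bound by myogenic factors, in capitals (RefSeq, GRCr8).
Itgb1bp2, chrX:70612271-70612570, strand +: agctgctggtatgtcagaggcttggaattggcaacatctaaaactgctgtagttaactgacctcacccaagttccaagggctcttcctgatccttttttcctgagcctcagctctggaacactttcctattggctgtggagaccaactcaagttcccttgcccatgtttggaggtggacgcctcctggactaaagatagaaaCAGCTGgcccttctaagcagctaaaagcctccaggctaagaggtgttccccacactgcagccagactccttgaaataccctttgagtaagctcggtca
Eno3, chr10:55868936-55869235, strand +: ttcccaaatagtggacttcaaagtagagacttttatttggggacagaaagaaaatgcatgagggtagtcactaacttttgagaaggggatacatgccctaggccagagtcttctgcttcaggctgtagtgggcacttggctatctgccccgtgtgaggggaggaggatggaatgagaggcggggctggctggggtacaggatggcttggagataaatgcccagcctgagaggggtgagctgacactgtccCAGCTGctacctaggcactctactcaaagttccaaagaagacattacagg
Of 31 genes of the 3 muscle lists with a promoter, 11 hold CAGCTG and 2 of these are called, where 15.1% of all promoters hold it. No promoter of these 31 holds the MEF2 site CTAAAAATA, which is in 0.511% of all promoters.

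Genes of the respiratory chain, ATP synthase and citric acid cycle were mostly higher on day 14, by small amounts. Of 20 tested nuclear members 5 rose and none fell, where 5.51% of all genes rose and 5.07% fell. With an adjusted p within 0.05 and any size of change, 15 members were higher and none lower. Over all 13716 genes tested, 1580 were higher and 1542 lower at this limit. The list's median log2 fold change was 0.85, against 0.28 with library totals alone. Mdh2, the mitochondrial malate dehydrogenase, stood at 301, 186, 226 and 175 CPM on day 3 and 724, 430.1, 487 and 482 CPM on day 14 (log2 fold change 1.26, standard error 0.24, edgeR adjusted p = 0.0097). Atp5i, a small subunit of ATP synthase, stood at 90.4, 62.2, 71 and 45.9 CPM on day 3 and 272, 156, 160.1 and 141 CPM on day 14 (log2 fold change 1.43, edgeR adjusted p = 0.0097). In both genes day 14 replicate 1 was the highest of all 8 libraries, and the days did not overlap. Ndufv3, a subunit of complex I, ranged from 40.9 to 76.4 CPM on day 3 and 98.4 to 134 CPM on day 14 (log2 fold change 1.13, edgeR adjusted p = 0.0093). Fh, the fumarase of the citric acid cycle, ranged from 92.8 to 142 CPM on day 3 and 176 to 322 CPM on day 14 (log2 fold change 1.101, standard error 0.22, edgeR adjusted p = 0.012). With library totals alone the log2 fold changes of Mdh2, Atp5i, Ndufv3 and Fh were 0.69, 0.86, 0.59 and 0.52, below the threshold for a call, with adjusted p of 0.0049, 0.0058, 0.011 and 0.011 (edgeR). The number of genes that rose was 10 without day 3 replicate 1, 8 without day 14 replicate 2 and 3 without day 14 replicate 1. The motifs CCGGAAG and GGAAGTG, which can overlap and are bound by ETS factors, are in 5 and 4 of 17 promoters of this list, against 8.75% and 9.86% of all promoters. Of the 35 genes of the mitochondrial chromosome 23 were tested, 15 rose and none fell, where 5.51% of all genes rose. Their median log2 fold change was 1.15 (0.59 with library totals alone). They took 5.73, 4.42, 4.76 and 4.30% of the counts in day 3 replicates 1 to 4 and 8.94, 6.74, 6.27 and 6.48% on day 14, without overlap between days. Sums of the muscle fibre and muscle energy lists (1422 to 3858 CPM on day 3 and 6719.8 to 13637 CPM on day 14 for the latter), respiratory chain sums (2859 to 4746 CPM on day 3 and 5837 to 9049.7 CPM on day 14) and mitochondrial shares were thus all higher on day 14, while interferon list sums were lower. Most of the rise of the fibre sums came from Mb alone, and most of that of the energy sums from Eno3 alone. These sums therefore do not describe the other members of either list. Whether the share of muscle in the sampled tissue has a part in the changes of other gene groups was not tested.

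Of 9 collagen genes 1 fell and none rose (11.1% called, against 10.6% of all genes). Col1a1, a chain of the main fibrillar collagen of scars, stood at 496, 776, 604 and 1809.9 CPM on day 3 and 324, 2533, 888 and 832 CPM on day 14 (log2 fold change 0.31, edgeR adjusted p = 0.73). Col3a1, the collagen of early repair tissue, stood at 1696, 2603, 1831 and 5883 CPM on day 3 and 1153, 7028, 2609 and 2574 CPM on day 14 (log2 fold change 0.15, edgeR adjusted p = 0.86). The values of both days overlapped for both genes, with day 3 replicate 4 and day 14 replicate 2 high in each. The medians of the collagen list (0.36), the matrix glycoprotein list (0.35) and the fibroblast list (0.18) were positive under TMM and negative with library totals alone (-0.20, -0.22 and -0.36), so no direction is given for these groups. Among 25 matrix glycoprotein genes 3 rose and 1 fell (12.0% and 4.0%, against 5.51% and 5.07% of all genes). Prg4, which encodes lubricin, a lubricant of joint and serosal surfaces, stood at 234, 349, 178 and 246 CPM on day 3 and 35.7, 35.8, 26.3 and 36.1 CPM on day 14 (log2 fold change -2.91, standard error 0.22, edgeR adjusted p = 0.001). It was the gene with the lowest p among the named genes, and its days lay far apart. Angptl1, a secreted angiopoietin-like protein, stood at 5.59, 2.06, 3.21 and 7.78 CPM on day 3 and 14.7, 38.7, 22.3 and 16.2 CPM on day 14 (log2 fold change 2.30, edgeR adjusted p = 0.011). Fibin, a secreted protein, ranged from 1.76 to 3.41 CPM on day 3 and 4.16 to 16.1 CPM on day 14 (log2 fold change 2.11, edgeR adjusted p = 0.011). Dpt, which encodes dermatopontin, a small protein that aids collagen fibril assembly, stood at 67.7, 66.1, 54.5 and 136 CPM on day 3 and 151, 473, 253 and 186 CPM on day 14 (log2 fold change 1.71, edgeR adjusted p = 0.022), with adjusted p of 0.074 and 0.053 without day 3 replicates 2 and 3 (edgeR). Eln, the elastin gene, had 76.8 ± 36.4 CPM (SD, n = 4) on day 3 and 116 ± 61.8 CPM (SD, n = 4) on day 14 (log2 fold change 0.60, edgeR adjusted p = 0.33). Dcn, the decorin gene, had 770.4 ± 287 CPM (SD, n = 4) on day 3 and 435 ± 275 CPM (SD, n = 4) on day 14 (log2 fold change -0.82, edgeR adjusted p = 0.19).

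Of the matrix enzymes and their inhibitors that were called, more fell than rose. Timp3, an inhibitor of metalloproteinases that stays bound to matrix, stood at 26.5, 18.8, 17 and 18.7 CPM on day 3 and 53.2, 62.3, 60.9 and 44.8 CPM on day 14 (log2 fold change 1.45, standard error 0.17, edgeR adjusted p = 0.0029), without overlap. Its log2 fold change was 0.91 with library totals alone and so missed the size needed for a call (edgeR adjusted p = 0.0059). Adamts4 and Adamts1, proteases that cut proteoglycans, were both called lower. Adamts4 ranged from 19.4 to 25.2 CPM on day 3 and 3.43 to 9.36 CPM on day 14 (log2 fold change -1.58, edgeR adjusted p = 0.0082) and Adamts1 from 75.7 to 137 CPM on day 3 and 34.4 to 59.7 CPM on day 14 (log2 fold change -1.099, edgeR adjusted p = 0.013). Adamts1 fell below the fold threshold, at -0.99 and -0.95, without day 3 replicate 2 and without day 14 replicate 1. Of 13 tested members 3 fell (23.1%, against 5.07% of all genes), these 2 among them. Timp3 was the 1 that rose (7.69%, against 5.51% of all genes). Of 18 fibroblast genes, Prg4 was the only one called (5.56% lower, against 5.07% of all genes). Pdgfra, the receptor that marks fibroblasts, had 63.6 ± 41.8 CPM (SD, n = 4) on day 3 and 32.1 ± 24.4 CPM (SD, n = 4) on day 14 (log2 fold change -0.99, edgeR adjusted p = 0.23). Itga3 was the 1 of 9 basement membrane genes that fell (11.1%, against 5.07% of all genes). Its log2 fold change was -1.08 (edgeR adjusted p = 0.035), a call kept in 2 of the 8 fits without 1 library. Col13a1, a membrane collagen, was the 1 collagen that fell, from 2.7 to 6.35 CPM on day 3 and 1 to 2.18 CPM on day 14, kept in 6 of these fits.

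**Figure D4:**
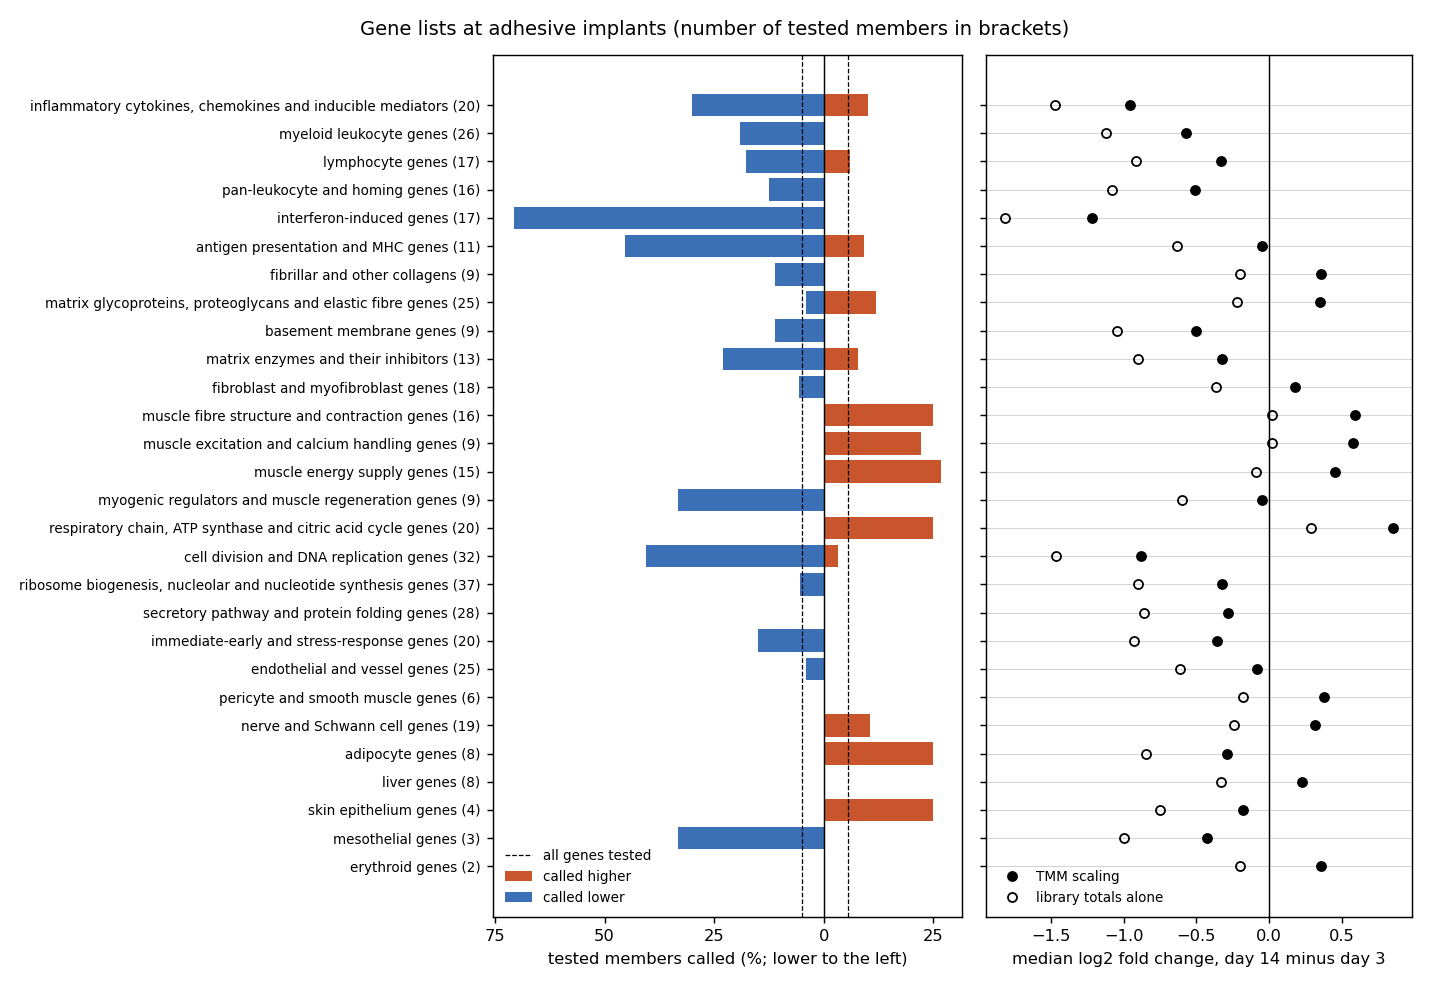
Left, the share of tested members called higher (orange, to the right) and lower (blue, to the left) on day 14 for 28 gene lists, with the number of tested members in brackets and dashed lines at the share of all genes tested (5.51% and 5.07%). Right, the median log2 fold change of each list under TMM scaling (filled) and with library totals alone (open), where interferon-induced genes lie lowest under both (-1.22 and -1.81) and some lists change sign between scalings, collagens (0.36 and -0.20) among them.

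Few vessel genes were called. Of 25 tested endothelial genes 1 fell and none rose (4.0% called, against 10.6% of all genes). The gene that fell was Selp, which encodes P-selectin, the adhesion molecule that catches leukocytes on activated endothelium. It stood at 21.7, 36, 24.4 and 27.3 CPM on day 3 and 5.51, 13.2, 5.77 and 5.05 CPM on day 14 (log2 fold change -1.88, standard error 0.32, edgeR adjusted p = 0.0074), with no overlap, and the call held without any single library. Sele, the related E-selectin gene, had 6.7 ± 0.597 CPM (SD, n = 4) on day 3 and 2.96 ± 2.44 CPM (SD, n = 4) on day 14 (log2 fold change -1.16, edgeR adjusted p = 0.086). Flt1, a receptor for vascular endothelial growth factor, had 31.6 ± 2.46 CPM (SD, n = 4) on day 3 and 36.9 ± 4.01 CPM (SD, n = 4) on day 14 (log2 fold change 0.22, edgeR adjusted p = 0.18). The endothelial list summed to 398 to 427 CPM on day 3 and 352 to 522 CPM on day 14, and 4 of its genes fell without day 14 replicate 2 and 2 without day 3 replicate 1. Of 6 pericyte and smooth muscle genes none was called. Rgs5, a marker of pericytes, stood at 38.6, 41.3, 46.4 and 39.1 CPM on day 3 and 69.5, 68, 79.3 and 67.3 CPM on day 14. Notch3, a receptor of the same cells, stood at 25.6, 22.9, 26 and 22.9 CPM on day 3 and 37, 41.1, 43.1 and 35.5 CPM on day 14. Both genes lacked overlap between days, and their log2 fold changes of 0.78 and 0.69 were below the fold threshold (adjusted p = 0.004 and 0.0054, edgeR). With library totals alone these were 0.21 and 0.13 (adjusted p = 0.27 and 0.51, edgeR).

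Nerve genes were detected at low levels, and 2 of 19 rose (10.5%, against 5.51% of all genes). Gap43, a protein of growing axons and of Schwann cells after injury, stood at 4.66, 2.48, 5.43 and 5.08 CPM on day 3 and 9.46, 34.8, 12.4 and 9.72 CPM on day 14, with day 14 replicate 2 about as high as the other day 14 libraries together (log2 fold change 1.92, edgeR adjusted p = 0.022, and 0.068 without day 3 replicate 2). Gpr37, a receptor of myelinating glia, ranged from 0.0825 to 0.31 CPM on day 3 and 0.728 to 1.5 CPM on day 14 (log2 fold change 2.38, edgeR adjusted p = 0.0086). The glial gene S100b had 6.2 ± 4.57 CPM (SD, n = 4) on day 3 and 3.62 ± 3.04 CPM (SD, n = 4) on day 14 and did not pass (log2 fold change -0.76, edgeR adjusted p = 0.42). Without day 3 replicate 2, 1 nerve gene rose in place of 2.

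Genes of other cell types that the samples could hold were mostly scarce. Adipoq, the adipocyte hormone adiponectin, had 28.3 ± 26.7 CPM (SD, n = 4) on day 3 and 10.2 ± 7.4 CPM (SD, n = 4) on day 14 (log2 fold change -1.46, edgeR adjusted p = 0.18). Of 8 adipocyte genes 2 rose, Srebf1 and C1qtnf2, and Srebf1 is also used in muscle. C1qtnf2 kept its call in 4 of the 8 fits without 1 library, so that 1 adipocyte gene rose without day 3 replicate 2, 3 or 4 or day 14 replicate 3. With library totals alone its log2 fold change was 0.85 (edgeR adjusted p = 0.10). Of 8 liver genes none was called, with Alb, the albumin gene, at 10.2 to 17.2 CPM on day 3 and 18.4 to 29 CPM on day 14 (log2 fold change 0.78, edgeR adjusted p = 0.028). Tp63, a factor of basal skin epithelium, ranged from 6.07 to 15.9 CPM on day 3 and 16.9 to 44 CPM on day 14 and was the 1 of 4 skin genes that rose (log2 fold change 1.26, edgeR adjusted p = 0.047), a call kept in 1 of the 8 fits without 1 library. The 3 mesothelial genes summed to 191 to 366 CPM on day 3 and 36.2 to 53 CPM on day 14, most of it from Prg4, and the 2 erythroid genes to 0.784 to 1.71 CPM on day 3 and 1.31 to 2.29 CPM on day 14.

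Some of the largest changes belong to genes without a symbol here. ENSRNOG00000048402 on chromosome 6 from 138092131 to 138093643 stood at 0.0517, 0.206, 0.128 and 0.0321 CPM on day 3 and 5.41, 108, 25.5 and 12.1 CPM on day 14 (log2 fold change 8.43, edgeR adjusted p = 0.0046), so that it was almost undetected on day 3 and varied widely on day 14. ENSRNOG00000006471 on chromosome 7 from 119429019 to 119441487 stood at 403, 66.6, 108 and 74.9 CPM on day 3 and 7464, 3181, 4650 and 5823 CPM on day 14 (log2 fold change 5.02, edgeR adjusted p = 0.004), with day 3 replicate 1 the highest of day 3, the order seen for Eno3. Among genes without a symbol and with at least 20 CPM on day 3, the largest falls were those of short genes. ENSRNOG00000038047 on chromosome 17 from 78793336 to 78793724 ranged from 116 to 294 CPM on day 3 and 2.03 to 12.6 CPM on day 14 (log2 fold change -5.06, edgeR adjusted p = 0.003). ENSRNOG00000043098 on chromosome 19 from 11307967 to 11308740 ranged from 223 to 508 CPM on day 3 and 5.2 to 21.9 CPM on day 14 (log2 fold change -4.88, edgeR adjusted p = 0.0022). The files give their exons a summed length of 389 and 382 bases.

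The change between days was set beside that at non-adhesive implants, fitted alone from its own 8 libraries, where 245 genes rose and 330 fell among 14160 tested (1.73% and 2.33%, 4.06% together). Without non-adhesive day 14 replicate 4, 616 rose and 485 fell (4.22% and 3.33%, 7.55% together). No other non-adhesive library was left out of this comparison, so whether this gain is particular to that library was not tested. Of the genes called at adhesive implants and tested at both, 123 of 746 rose (16.5%) and 190 of 684 fell (27.8%) also at non-adhesive implants. These are 55.2% and 59.6% of the non-adhesive calls. The sign of the log2 fold change was the same at both implants for 732 of the 746 and 633 of the 684 genes, and no gene was called in opposite directions. These genes were chosen by their call at adhesive implants, and the share with equal signs over all genes is not given here. A batch that follows the day would be shared by both implants.

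Some genes, picked here after their values were seen, had values close to each other at both implants on the log2 scale. These were Ung (-1.98 adhesive and -2.07 non-adhesive), Uck2 (-2.33 and -2.73), Myc (-1.62 and -1.39), Prg4 (-2.91 and -2.64), Ccl7 (-2.83 and -3.08), Eno3 (2.64 and 2.76) and Mdh2 (1.26 and 1.30). The values of some interferon-induced genes, also picked after they were seen, lay further apart. Mx1 changed by -4.10 at adhesive and -0.46 at non-adhesive implants and Oas1a by -2.65 and -0.14. RT1-S3, of the antigen presentation list, changed by -1.67 and 0.31. On a common scaling of all 16 libraries, Mx1 averaged 239 CPM (136 to 377) on day 3 and 13.9 CPM (8.87 to 19.8) on day 14 at adhesive implants, and 45.7 CPM (15.0 to 101) and 34.7 CPM (8.21 to 70.0) at non-adhesive implants. The day 3 libraries of adhesive implants thus lay above all others. The difference of the 2 changes, tested as an interaction over all 16 libraries, was -3.71 (edgeR adjusted p = 0.66) for Mx1, -2.58 (edgeR adjusted p = 0.74) for Oas1a and -2.05 (edgeR adjusted p = 0.67) for RT1-S3, and none passed after adjustment over 14601 genes. The median of the interferon list at non-adhesive implants was -0.26, with 1 of 17 members called lower. Of these 17 members, 7 had an unadjusted p under 0.05 for the difference (edgeR). Rnf19b, also of this list, fell alike at both implants. On the common scaling it averaged 123 CPM on day 3 and 52.9 CPM on day 14 at adhesive implants, and 117 and 49.0 CPM at non-adhesive implants. For Mb the difference was 1.59 (edgeR adjusted p = 1) and for Cdkn1a 1.19 (edgeR adjusted p = 0.74), which also did not pass. The 1 gene that passed was ENSRNOG00000033734 on chromosome 13 from 52662996 to 52680990, with a difference of 3.37 (standard error 0.43, adjusted p = 0.016, edgeR; 0.00685% of genes tested). It stood at 93.3, 139.9, 126 and 134 CPM on day 3 and 110.4, 130.1, 152 and 110 CPM on day 14 at adhesive implants, where the days overlapped, and its log2 fold change was 0.03 there and -3.38 at non-adhesive implants. At an unadjusted p under 0.05 there were 692 genes, and DESeq2 called 25 and limma-voom 1. No gene passed without any 1 of adhesive day 3 replicates 1 to 4, adhesive day 14 replicates 2 and 3, non-adhesive day 3 replicate 4 and non-adhesive day 14 replicates 2 and 3, and 3 genes passed without non-adhesive day 14 replicate 4.

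**Figure D5:**
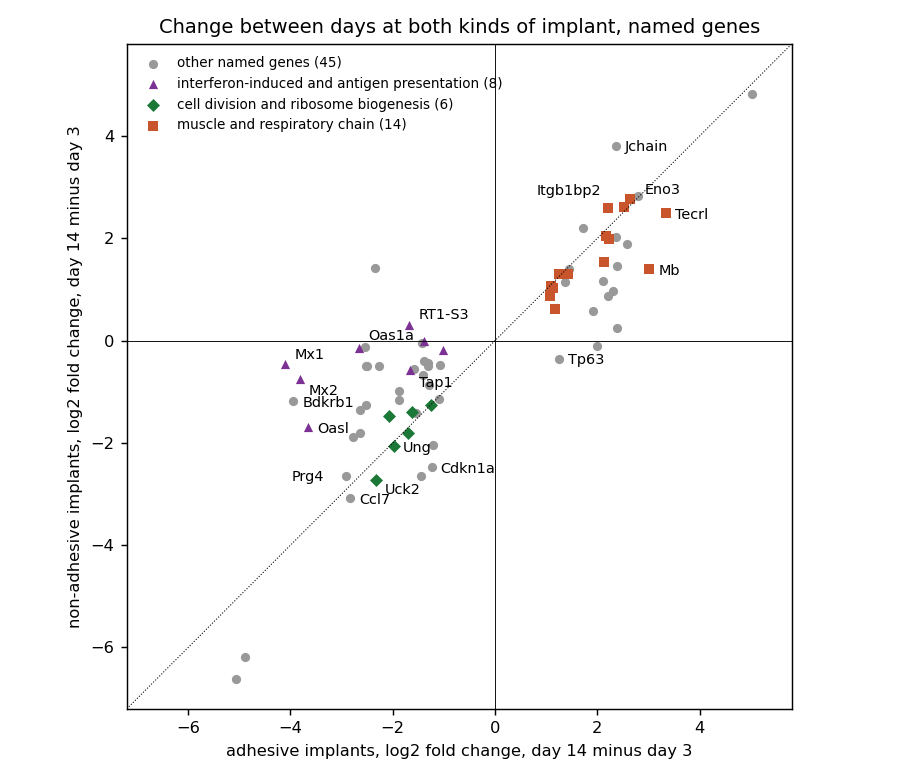
Log2 fold change between day 14 and day 3 at adhesive implants (horizontal axis) and at non-adhesive implants (vertical axis) for 73 named genes called at adhesive implants, n = 4 libraries per day and implant, with the dotted line marking equal change. Ung (-1.98 and -2.07) and Eno3 (2.64 and 2.76) lie near the line, and interferon-induced genes such as Mx1 (-4.10 and -0.46) lie to its upper left.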

How the data were processed

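RNA of the implant–tissue interface was enriched for polyadenylated transcripts and sequenced. According to the labels and the study's methods, the authors used Cutadapt for trimming, STAR for alignment and featureCounts for counting. The deposited values are raw counts per gene. The strand setting is not given in the sources used here, so reads of overlapping and antisense genes cannot be told apart. Labels, methods and gene coordinates do not point to 1 genome build, and gene positions are therefore given as in the count files. Gene symbols come from the pairing of identifiers and names in the supplementary tables of the study.

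Counts of the 8 adhesive libraries passed filterByExpr and TMM scaling before the quasi-likelihood test of edgeR 4.0.16 (R 4.3.3), with Benjamini-Hochberg adjustment over all genes tested. The difference of the change between implants was tested in all 16 libraries. A call needed an adjusted p within 0.05 and a log2 fold change of 1 or more in size. The scripts were tested on simulated data. Alternatives were DESeq2 1.42.0, limma-voom (limma 3.58.1), other scalings, no filter on low counts, a joint fit of 16 libraries, a replicate block and the omission of each library. Depth was 13852126 to 22374546 counts, and no 2 libraries of a group agreed within sampling noise.

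The comparison, the 28 gene lists and their members were chosen with earlier results of these data known. Named genes were the qPCR and immunofluorescence panel of the study, up to 12 called genes per direction with the largest change, at least 5 CPM and no overlap, up to 4 called members per list (or the 2 most abundant members where none was called), up to 2 genes per direction without a symbol and the 5 genes with the lowest p for the difference between implants. Other members were named after their values were seen, and some members counted in the lists are not reported by name here. Promoters are from RefSeq (GRCr8).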

Additional observations from a re-analysis of the deposited data

Results flagged for a closer look

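In 19 of 166 pairs of a named gene and a day, 1 of the 4 libraries lay far from the other 3 by Dixon's test, where chance gives about 1 in 20. The libraries involved recur. Day 3 replicate 1 was far above the other day 3 libraries for 7 genes. Tecrl stood there at 0.879 CPM (others 0.385 to 0.413), P2rx6, a purinergic receptor gene, at 10.4 CPM (0.371 to 1.46), Srebf1 at 71.1 CPM (20.2 to 24.5) and Phkg1 at 69.1 CPM (17.2 to 23.7). In the same library Map2k6 stood at 18.8 CPM (3.83 to 5.69), Pfkfb1 at 23.9 CPM (3.15 to 5.39) and ENSRNOG00000006471 at 403 CPM (66.6 to 107.9). These values lie between the other day 3 libraries and all day 14 libraries, except that Pfkfb1 exceeded day 14 replicate 3 (22.4 CPM).

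Day 14 replicate 2 was far above the other day 14 libraries for 5 genes. Ccl7 stood there at 52.2 CPM (10.2 to 13.8), Cd38 at 21.3 CPM (8.44 to 9.57) and Gpr65 at 3.28 CPM (1.35 to 1.67). Selp stood at 13.2 CPM (5.05 to 5.77) and Gap43 at 34.8 CPM (9.46 to 12.4) in this library.

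Other libraries stood apart for single genes. Adamts4 was at 25.2 CPM (19.4 to 19.8) in day 3 replicate 2. In day 3 replicate 3, Rhoh was low at 2.10 CPM (6.26 to 6.93) and Cdkn1a high at 348 CPM (299 to 306). Dpt was at 136 CPM (54.5 to 67.7) in day 3 replicate 4. In day 14 replicate 1, Prkg2 was at 7.80 CPM (4.51 to 4.90) and Atp5i at 272 CPM (141 to 160.1), and in day 14 replicate 3 Prg4 was low at 26.3 CPM (35.7 to 36.1).

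The change between days differed between implants for ENSRNOG00000033734, by 3.37 on the log2 scale (adjusted p = 0.016, edgeR).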

How the results depend on the processing

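With library totals alone in place of TMM, 2870 genes were called (291 higher and 2579 lower), of which 985 were among the 1452 of the TMM fit. Without a threshold on the fold change 3122 passed (1580 higher and 1542 lower), and with a log2 fold change of at least 2, 348 passed (187 and 161). Leaving out each library in turn gave 727 to 1995 calls, 348 to 1083 higher and 379 to 920 lower. The lowest counts came without day 3 replicate 2 (727, with 348 and 379), day 14 replicate 4 (884, with 477 and 407) and day 14 replicate 1 (934, with 490 and 444). DESeq2 called 1731 genes, limma-voom 1539, DESeq2 size factors in edgeR 1473, no filter 1453 and the joint fit 1186. The cause of these differences was not tested.

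Deviations of same-numbered adhesive libraries of day 3 and day 14 correlated at 0.44, 0.28, -0.01 and -0.11. Those of different numbers correlated at -0.53 to 0.52. With so few libraries these values cannot show whether replicate numbers pair the samples. Adhesive and non-adhesive libraries of the same number were not compared in this way. With the replicate number as a block, 1640 genes were called (880 higher and 760 lower), and no gene differed between implants (0). For the difference between implants DESeq2 called 25 genes, and leaving out each library gave 0 to 3.

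Of 74 called named genes none changed sign without a library, and 25 lost the call without at least 1. DESeq2 kept all 74, limma-voom 69, library totals alone 64, the joint fit 63 and the block 71. Signs turned only for genes that were not called: with library totals alone for Alas2 (-0.025), Serpinc1 (-0.33), Tfr2 (-0.38) and ENSRNOG00000033734 (-0.55), for Tfr2 without day 14 replicate 2 (-0.045, up to 0.39 without day 14 replicate 4), and for ENSRNOG00000033734 without the filter (-0.0078), without day 3 replicate 1 (-0.11) and without day 14 replicate 3 (-0.075), with up to 0.090 without day 14 replicate 4.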
